A study of Mus musculus with 4 samples.

Results

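The control-only regions are the 1610 stretches of open chromatin that were among the strongest ATAC-seq peaks of both control libraries of large peritoneal macrophages (LPMs) and of neither RXR-deleted library, out of 22300 regions in all. ATAC-seq marks open chromatin by the insertion of Tn5 transposase. The members were chosen by their measured values. From each of the 4 peak lists the 16097 peaks of highest −log10 q value (the peak caller's false discovery measure) were taken, peaks sharing 1 bp or more were merged, and regions with a taken peak in both control libraries and in no RXR-deleted library were kept. All ranks, fold enrichments and pileups of these regions therefore come from the contrast that selected them, and they are given as a description with no test.

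The controls were Rxrab fl/fl mice, which carry loxP-flanked Rxra and Rxrb, and the deleted group was LysMCre+ Rxrab fl/fl, in which Cre is expressed from the lysozyme M locus. All mice were 9 weeks old on a C57BL/6 background, each library was made from 40000 sorted LPMs, and there were 2 libraries per genotype (replicates 1 and 3 of Rxrab fl/fl, replicates 1 and 2 of LysMCre+ Rxrab fl/fl). This Cre is active across the myeloid lineage, and the peak lists do not measure how completely either gene was deleted in the sorted LPMs. By qPCR, the study reported that both transcripts were efficiently reduced in LPMs of this genotype. The study also reported markedly fewer embryo-derived LPMs in these mice, with monocyte-derived LPMs unchanged. The part of that shift in the results was not tested. According to the study's reporting summary, samples that did not cluster with their group were left out, so the spread within a genotype may be understated.

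LPMs are the resident macrophages of the peritoneal cavity. Their identity depends on GATA6, a transcription factor induced by retinoic acid from the surrounding stroma, and retinoic acid acts through heterodimers of retinoic acid receptors with retinoid X receptors (RXRs). RXRs bind DNA as homodimers or as partners of other nuclear receptors, usually at direct repeats of a hexamer such as AGGTCA, and the number of bases between the repeats (DR1 to DR5) differs between partners.

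The sequences below show 2 of the kinds of match that were searched for, in GRCm38 (mm10), read from RefSeq 5′ to 3′ on the strand named. The first set holds direct repeats of the RXR kind, in capitals, at members near Cyp26a1, Naip1, P2rx1, Cd93 and Cxcl10; the DR2 matches of Cyp26a1 and Naip1 were added to the set after their values were seen.
Cyp26a1 DR2, chr19:37702471-37702564, minus strand: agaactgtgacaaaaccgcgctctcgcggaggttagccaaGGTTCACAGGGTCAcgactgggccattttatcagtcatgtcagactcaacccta
Naip1 DR2, chr13:100449656-100449749, minus strand: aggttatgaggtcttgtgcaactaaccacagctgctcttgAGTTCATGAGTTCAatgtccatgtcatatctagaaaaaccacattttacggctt
P2rx1 DR5, chr11:72997745-72997841, plus strand: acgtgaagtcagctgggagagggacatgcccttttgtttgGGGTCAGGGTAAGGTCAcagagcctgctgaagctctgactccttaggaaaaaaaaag
Cd93 DR1, chr2:148492329-148492421, plus strand: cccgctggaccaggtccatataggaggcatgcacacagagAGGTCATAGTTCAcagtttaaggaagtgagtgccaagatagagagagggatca
Cxcl10 DR1, chr5:92348985-92349077, minus strand: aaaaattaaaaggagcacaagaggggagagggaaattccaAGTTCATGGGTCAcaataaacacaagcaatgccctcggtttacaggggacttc
The second set holds the GATA match, AGATAAG or TGATAAG, in capitals, at 4 of the members whose peaks in the LysMCre+ lists ranked lowest and at 1 of the members that ranked best in the controls (nearest to Mir6897).
Samsn1 GATA, chr16:75872539-75872625, minus strand: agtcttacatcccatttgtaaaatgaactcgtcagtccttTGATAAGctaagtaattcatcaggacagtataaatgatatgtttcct
Ptgs1 GATA, chr2:36279031-36279117, minus strand: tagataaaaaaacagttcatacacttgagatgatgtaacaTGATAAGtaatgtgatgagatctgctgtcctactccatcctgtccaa
Klf3 GATA, chr5:64753211-64753297, plus strand: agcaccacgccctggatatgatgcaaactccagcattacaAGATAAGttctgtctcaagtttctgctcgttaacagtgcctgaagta
D330050G23Rik GATA, chr2:116999030-116999116, plus strand: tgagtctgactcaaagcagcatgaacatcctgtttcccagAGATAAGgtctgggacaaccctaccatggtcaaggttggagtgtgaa
Mir6897 GATA, chr1:36130518-36130604, plus strand: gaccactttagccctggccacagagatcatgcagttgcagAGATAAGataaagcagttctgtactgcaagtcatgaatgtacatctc

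The libraries differed in how far down their lists the cut reached. Rxrab fl/fl replicate 1 had 38048 peaks and replicate 3 had 16097, and the LysMCre+ replicates had 65421 and 55581. The whole list of Rxrab fl/fl replicate 3 was thus taken, down to a −log10 q of 1.36, whereas in the other libraries the last peak taken had a −log10 q of 30.4, 46.8 and 28.4. For that library the rule asked only that a peak was called. All 7 defining genes of macrophages and LPMs (Adgre1, Itgam, Csf1r, Lyz2, Icam2, Timd4 and Gata6) carried a peak in each library. Below, 4 values in a row are always for Rxrab fl/fl replicate 1, Rxrab fl/fl replicate 3, LysMCre+ replicate 1 and LysMCre+ replicate 2. Of the defining genes of other cells, those with a peak in the full lists were 1, 0, 2 and 2 of 4 B cell genes, 1, 0, 1 and 1 of 3 T cell genes, 1, 0, 2 and 1 of 3 neutrophil genes, 1, 1, 1 and 1 of 3 eosinophil genes, 0, 0, 1 and 1 of 3 mesothelial genes and 0 of 3 mast cell genes in each library. None of the control-only regions lay in these genes of other cells, and the part of other cells in the results was not tested.

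The 1610 regions were 7.22% of the 22300 regions at equal peak number. The mirror class, taken in both LysMCre+ libraries but not in the controls, held 1743 regions (7.82%), and 10272 regions were taken in all 4 libraries. In the full lists, where 70744 regions were called, 32 were found in both controls and in no LysMCre+ library (0.0452%), and 3 of the 1610 members overlapped one of them. The set depended on the cut: with 12000 peaks per library there were 1373 control-only regions, which shared 585 of the 1610 members, and with 8000 peaks there were 1078, which shared 117.

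At this cut, nearly every member had a peak in the RXR-deleted cells that ranked below the cut. A peak of the full lists overlapped 1606 members in LysMCre+ replicate 1 and 1591 in replicate 2, and 1590 of 1610 (98.8%, 95% Wilson interval 98.1 to 99.2) had one in both. The same held for 99.9% of the 13443 regions taken in both controls. That background includes the members, and its other regions hold a taken LysMCre+ peak by the rule, so nothing is read from the difference. With Rxrab fl/fl replicate 3 left out and 38048 peaks taken from each other library, a choice made after seeing the data, the share fell to 39.3% of 5041 control-only regions. In 16 members a peak was missing only in LysMCre+ replicate 2, in 1 only in replicate 1, and in 3 in both. The Wilson intervals here and below cover counting over regions only, since regions are not replicates of a genotype.

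These peaks of lower rank stood well inside the LysMCre+ lists, which were longer. The members' median −log10 q was 45.8 and 7.72 in the controls and 32.3 and 18.6 in the LysMCre+ libraries. Both LysMCre+ medians were thus above that of Rxrab fl/fl replicate 3. The members' median rank was 12132.5 and 11038 in the controls, against 22280.5 and 23262 in the LysMCre+ lists. Taking the better of both LysMCre+ ranks, 473 members ranked no lower than 18000, 326 from 18001 to 20000, 461 from 20001 to 25000, 208 from 25001 to 30000, 117 from 30001 to 40000 and 22 below that. Most members were thus close to the cut in at least 1 LysMCre+ library, and few were far from it. The members were also weaker than the common peaks in the controls: they made up 0.147% of the regions that ranked in the top 4000 of both controls, and 35.4% of those whose worse control rank lay from 14001 to 16097.

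**Figure D1:**
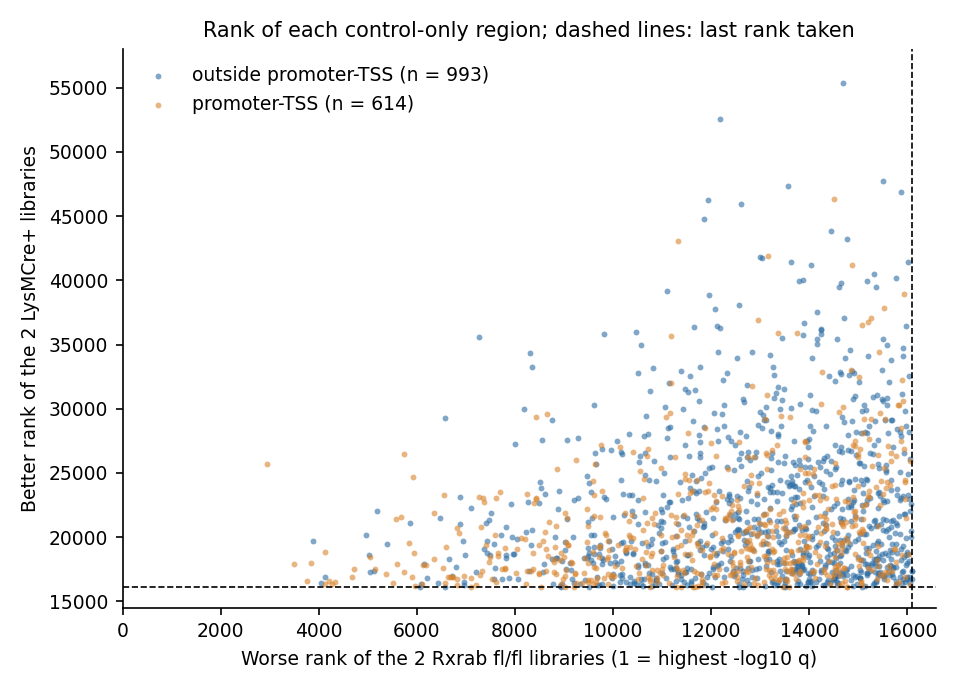
Each point is 1 control-only region with a peak in at least 1 full LysMCre+ list (614 in promoter-TSS, 993 outside); the x axis is the worse of its 2 Rxrab fl/fl ranks and the y axis the better of its 2 LysMCre+ ranks, with dashed lines at rank 16097. Points crowd towards both dashed lines, and 22 lie above rank 40000.

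At the edge of the rule, regions near Slc4a2 and Slc9a3r2 were members with LysMCre+ replicate 1 ranks of 16098 and 16099, and a region near Platr26 was a member with a LysMCre+ replicate 2 rank of 16100. Regions near Gpr141 and Msl1 were not members, with LysMCre+ replicate 2 ranks of 16089 and 16085, nor was a region near Nod1, whose rank in Rxrab fl/fl replicate 1 was 16099.

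Fold enrichment at the summit is the ratio of tags to the local background, and it differs between libraries as a whole. The members had median fold enrichments of 11.7 and 6.02 in the controls and of 9.74 and 7.65 in the LysMCre+ libraries, while the regions taken in all 4 libraries had 16.7 and 8.87 in the controls and 17.4 and 13.9 in the LysMCre+ libraries. The median tag pileup at the members' summits was 66 and 15 in the controls and 47 and 31 in the LysMCre+ libraries, against 127, 26, 129 and 83 in the common regions. Set relative to each library's median over the common regions, the members' median log2 fold enrichment was −0.50 and −0.56 in the controls and −0.84 and −0.86 in the LysMCre+ libraries. For the 1590 members with a value in each library, the difference of LysMCre+ minus Rxrab fl/fl had a median of −0.35 on this log2 scale (quartiles −0.59 and −0.12). It was below −1 in 56 members and above 0 in 228. Both LysMCre+ values were below both control values in 932 of 1590 (58.6%), beside 32.1% of the common regions. With the pileup in place of fold enrichment the median difference was −0.61 and the share 76.3%, beside 32.8%. The rule, which ranks by q value, favours this direction without fixing it for each member.

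**Figure D2:**
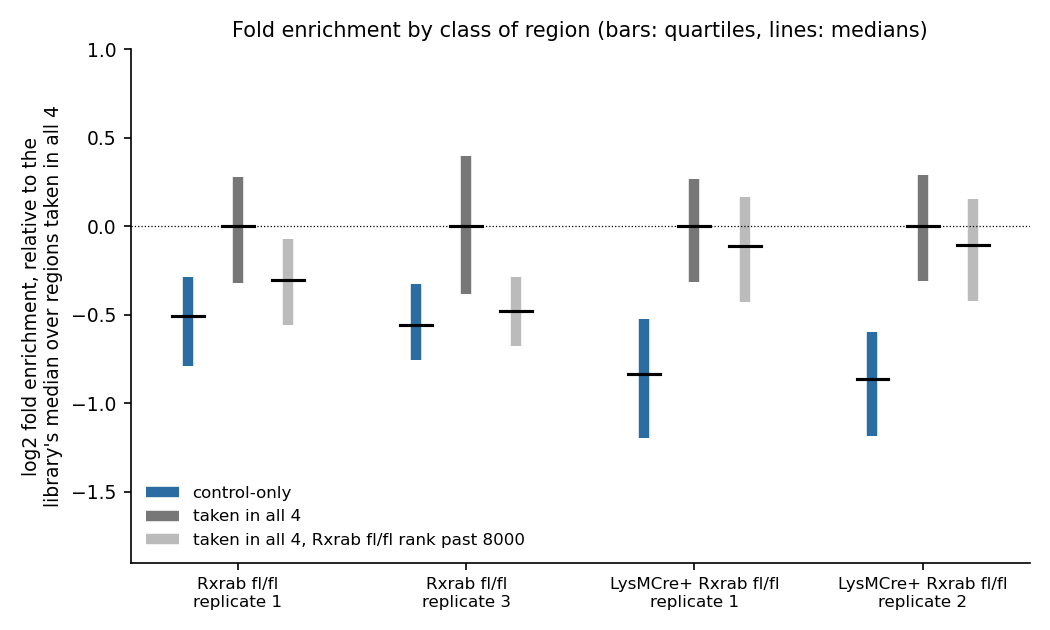
Log2 fold enrichment in the 4 libraries, relative to each library's median over regions taken in all 4 libraries, for control-only regions, regions taken in all 4, and the 3859 of those whose worse Rxrab fl/fl rank was past 8000; bars span the quartiles and black lines are medians. The control-only medians are −0.50 and −0.56 in the controls, above −0.84 and −0.86 in the LysMCre+ libraries.

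The members that ranked best in the controls lay mostly at promoters, like other regions of such rank. At worse control ranks of 1 to 4000, promoters held 80% of 5 members and 73.0% of all regions taken in both controls. At 4001 to 8000 they held 55.4% of 112 members and 53.6% of all such regions. The strongest member was the shared promoter of Marf1, a regulator of meiosis, and the microRNA gene Mir484 (chr16:14159205-14159726). Its fold enrichment was 15.2 and 11.2 in the controls and 6.42 and 6.14 in the LysMCre+ libraries, with ranks of 2934, 2286, 25757 and 25705. Both control values were above both LysMCre+ values. Next came the promoters of Rpp38, a subunit of ribonuclease P (19.4, 10.3, 10.2 and 7.09), Rab3gap2, a regulator of Rab GTPases (16.5, 10.5, 8.85 and 6.87), and Stim2, a calcium sensor of the endoplasmic reticulum (15.4, 10.4, 8.57 and 6.77). In these 3 each control value was above both LysMCre+ values. A region in an intron of Ctsb, which encodes the lysosomal protease cathepsin B (chr14:63132224-63132738), had 11.9 and 7.20 in the controls and 6.23 and 5.83 in the LysMCre+ libraries. At the Kmt2a promoter (chr9:44881183-44881846), which drives a histone H3 lysine methyltransferase, the values were 13.9 and 12.2 in the controls and 8.08 and 6.57 in the LysMCre+ libraries.

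Of the 22 members whose better LysMCre+ rank was past 40000, 4 lay in promoter-TSS. An intron of Samsn1, an adaptor of immune cell signalling (chr16:75872267-75872658), had fold enrichments of 10.7 and 4.35 in the controls and 5.43 and 4.44 in the LysMCre+ libraries, with ranks of 13167, 15508, 48778 and 47700. The 2 genotypes overlapped there in fold enrichment, while the rule keeps control and LysMCre+ ranks apart in every member. On the relative log2 scale the values were −0.64 and −1.03 in the controls and −1.68 and −1.64 in the LysMCre+ libraries. A region 48.6 kb downstream of the start of Ptgs1, which encodes cyclooxygenase-1 (chr2:36278808-36279159), had ranks of 13002, 9379, 52241 and 41847 and fold enrichments of 12.9, 7.34, 6.02 and 6.25. In an intron of Bcl2, an inhibitor of apoptosis (chr1:106678183-106678560), the ranks were 13620, 10716, 44137 and 41453 and the fold enrichments 14.2, 6.79, 7.31 and 6.25. A region 38.0 kb upstream of Vegfa, which encodes vascular endothelial growth factor A, had 6.91, 4.52, 4.27 and 4.47, and a region 50.3 kb upstream of Klf3, which encodes a Krüppel-like repressor, had 11.8, 6.36, 6.12 and 5.63. Not among these 22 was an intron of Tfeb, the transcription factor of lysosome genes (chr17:47757034-47757487). It ranked 10716 and 12087 in the controls and 37771 and 53248 in the LysMCre+ libraries, with fold enrichments of 9.38, 5.17, 4.94 and 2.79.

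The 3 members with no peak in either LysMCre+ list were an intron of Cmip, an adaptor protein (chr8:117339230-117339835), an intron of Dtx4, an E3 ubiquitin ligase, 12.7 kb downstream of the start of Mpeg1 (chr19:12473321-12473690), and a region 545 kb from Mir691, the nearest annotated start. In the controls their fold enrichments were 6.22 and 4.81 at Cmip, 8.55 and 4.17 at Dtx4, and 13.1 and 4.85 near Mir691, and their pileups 89 and 17, 51 and 11, and 38 and 9 tags. Against the member medians of 66 and 15 tags, Cmip was above and the other two were below. Members with no peak in LysMCre+ replicate 2 included the promoters of Dmac1, an assembly factor of respiratory complex I, Clptm1 and Mafg, a small MAF transcription factor, and regions near Esr1, the oestrogen receptor alpha gene, and Setd2, a histone H3 lysine 36 methyltransferase. At the Mafg promoter the pileup was 117 tags in both Rxrab fl/fl replicate 1 and LysMCre+ replicate 1, with fold enrichments of 6.82 and 4.84. The 1 member missing only from LysMCre+ replicate 1 lay 58.0 kb from the start of Irf2bpl, with fold enrichments of 6.32 and 4.62 in the controls and 2.91 in LysMCre+ replicate 2.

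Genes that define LPMs, or that depend on retinoic acid in LPMs, were grouped in 1 list. Of its 33 genes with any region, 17 were nearest to at least 1 member (51.5%), beside 1432 of 12381 genes (11.6%) overall. Of their 105 regions, 19 were control-only (18.1%, beside 7.22% of all regions) and 4 were taken only in the LysMCre+ libraries (3.81%, beside 7.82%). The share was 33.3% without Rxrab fl/fl replicate 1 and 27.5% without Rxrab fl/fl replicate 3. It was 22% without LysMCre+ replicate 1 and 28.6% without LysMCre+ replicate 2. Of all regions, 14%, 11.4%, 12% and 10.8% were control-only in these settings, in that order. The list was drawn up with results of these data known, so its count is not independent evidence of a direction.

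Both regions at Gata6 were members. At the Gata6 promoter (chr18:11052221-11052749) fold enrichment was 11.3 and 7.61 in the controls and 5.8 and 8.61 in the LysMCre+ libraries. The ranks were 9592, 7706, 42828 and 16355. On the relative log2 scale the values were −0.56 and −0.22 in the controls and −1.58 and −0.69 in the LysMCre+ libraries. The LysMCre+ replicates stood far apart, and replicate 2 fell just outside the cut. At the start of Gata6os, the antisense neighbour of Gata6 (chr18:11053029-11053423), the ranks were 11899, 14697, 50555 and 30125, and fold enrichment was 9.64 and 4.74 in the controls and 4.85 and 5.66 in the LysMCre+ libraries. 2 further members lay 143 and 144 kb upstream of Gata6os. Of the 7 regions nearest to Gata6os, 3 were members and 1 was taken in all 4 libraries.

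Both regions at Naip1, which encodes a sensor of the NLR family that detects bacterial proteins, were members too, and there neither LysMCre+ replicate came near the cut. The intron region (chr13:100449495-100449975) ranked 11546 and 9337 in the controls and 26324 and 33332 in the LysMCre+ libraries, with fold enrichments of 11.2, 6.64, 10.3 and 5.97. The intergenic region 53.9 kb from the Naip1 start ranked 11472, 9410, 31550 and 32945. The Naip genes are close copies of each other. How many reads at Naip1 and Naip2 were misplaced, or lost when poorly mapped pairs were discarded, was not measured here.

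Downstream of Cyp26a1, whose enzyme degrades retinoic acid, the member 4.72 kb from the start (chr19:37702336-37702725) ranked 13349 and 13493 in the controls and 34007 and 31561 in the LysMCre+ libraries, with fold enrichments of 11.3, 5.42, 9.19 and 6.92. An intron of Ltbp1, which encodes a carrier of latent TGF-beta, had the lowest rank of any member in a LysMCre+ list: it ranked 11131, 8761, 59595 and 32021, with fold enrichments of 10.1, 6.36, 4.44 and 5.65. At Adgre1, the gene of the F4/80 antigen, a region 16.9 kb upstream ranked 12410, 10704, 35787 and 27518. Upstream of Marco, a scavenger receptor gene, the ranks were 6636, 7743, 29054 and 16768, and in an intron of Aspa, the gene of aspartoacylase, 7339, 9285, 28218 and 23058. Promoters of Alox15 (9540, 5299, 19506 and 16664), Icam2 (11539, 14415, 22325 and 16310) and Tgfb2 (11709, 15973, 21478 and 27110) were members as well. The other members of the list lay near Saa3, Garnl3 (2 introns), Cxcl13, C4b, Laptm5, Cd9 and Prg4. In 14 of these 19 members the rank was lower in LysMCre+ replicate 1 than in replicate 2, with medians of 30517 and 23058, whereas over the 1590 members this held for 712.

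**Figure D3:**
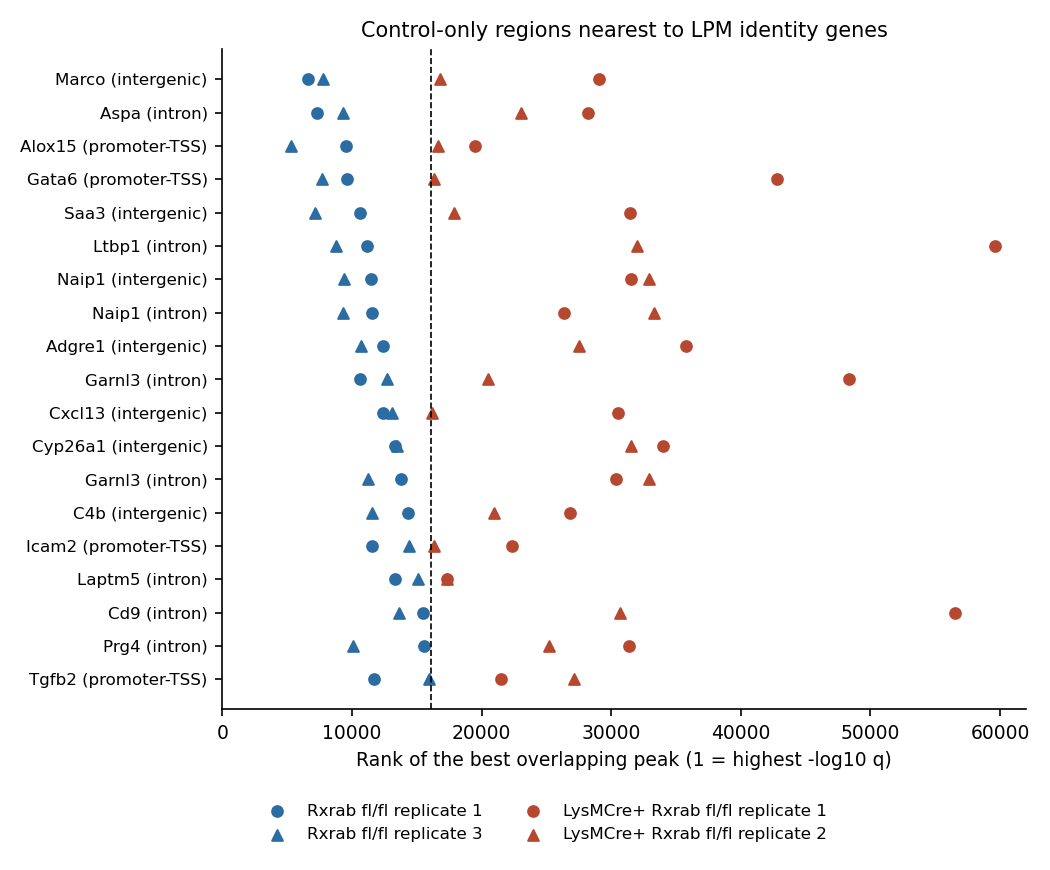
Rank of the best overlapping peak in each of the 4 libraries for the 19 control-only regions nearest to LPM identity genes, one row per region; blue marks are Rxrab fl/fl, red marks LysMCre+ Rxrab fl/fl, and the dashed line is rank 16097. The rule puts blue marks left of the line and red marks right of it; LysMCre+ replicate 1 reaches 59595 at Ltbp1 and 42828 at Gata6, where replicate 2 is at 16355.

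Among the other genes that the study names for its ATAC-seq data, none carried a control-only region. At equal peak number Thbs1, Cdca2, Cenpe and Rxrb had 1 region each, Serpinb2 had 3, Capn2 had 5 and Mrc1 had 2. Fcrls, Cd209d, Retnla and Ccr2 had 0 regions. The study compared read density and reported less accessibility in RXR-deficient LPMs at Thbs1, Serpinb2, Cdca2 and Cenpe. It reported more at Capn2, Mrc1, Fcrls, Cd209d, Retnla and Ccr2. The rule here, by rank of called peaks, is an unlike measure, so these counts do not check those changes. Of the targeted genes, Rxra had 14 regions, of which 3 were taken only in the LysMCre+ libraries and 5 in all 4. The 1 region at Rxrb was not taken in all 4 libraries. A peak at these genes does not test for the deletion itself.

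Regulators of cell death, a list of 36 genes with a region, carried 11 members at 8 genes, or 11 of 74 regions (14.9%, beside 7.22% of all regions), and 1 LysMCre+-only region (1.35%, beside 7.82%). By genes this was 22.2%, beside 11.6% of all genes. Besides the Bcl2 intron, the Bcl2 promoter (chr1:106713929-106714637) ranked 10018, 8589, 16966 and 17308, so there the LysMCre+ peaks lay just below the cut. Members also lay at Bbc3 (2 promoter regions) and Bmf (an intron), which encode BH3-only activators of apoptosis, and near Naip2 and Cycs, besides both Naip1 regions. The member assigned to Bcl2l11, a further BH3-only gene, lay in an intron of Acoxl, 117 kb from the Bcl2l11 start, and ranked 15846, 13201, 25034 and 39272.

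Genes of Toll-like receptor and NF-kB signalling had 13 members among 111 regions (11.7%), at 12 of 38 genes (31.6%), and the background for this and the lists that follow was 7.22% of regions and 11.6% of genes. They included the promoters of Tlr2, a receptor for bacterial lipoproteins (ranks 8294, 9253, 26036 and 32221), and of Nfkb1 (12329, 8395, 21477 and 26724), Nfkbid and Nfkbie, regions near Nfkbiz, Nfkbia, Cd14, Tab2 and Tlr4, and an intron of Irak2. The member nearest to Tab1 lay in the neighbouring gene Syngr1. Lysosome and autophagy genes had 14 of 119 regions (11.8%), with 2 introns of Ctsb, the Mcoln1 promoter, which drives a lysosomal calcium channel (9157, 7955, 17986 and 24104), promoters of the proton pump genes Atp6v1b2, Atp6v1e1 and Atp6v1a, and the Tfeb intron. Coagulation and complement genes had 7 of 51 (13.7%), 2 of them nearest to F7, the gene of coagulation factor VII. One lay in an intron of its neighbour Mcf2l, and the other, in an intron of F7, ranked 13797, 10410, 39965 and 47750. Cytokine and chemokine genes had 13 of 133 (9.77%), with promoters of Cxcl1, Cxcl10, Tgfb1 and Csf2ra.

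Histone genes had 8 of 36 regions (22.2%, beside 7.22%) and 0 LysMCre+-only regions, and 7 of the 8 were promoters, such as that of H4c1 (ranks 6861, 3835, 20294 and 24444) and that of H2bc9, 0.323 kb from the start of H3c7 (13746, 9603, 37026 and 35913). Histone genes are near-identical copies. The authors discarded poorly mapped pairs, and how many reads were lost or misplaced at these genes was not measured here. The list of cytosolic ribosomal protein genes, taken by symbol, had 12 of 96 (12.5%), among them Rps16, Rps12, Rps23 and Rps7, although Rps6ka1 and Rps6kc1 in it encode kinases. Ubiquitin-conjugating enzyme genes had 7 of 50 (14%), splicing factor genes 5 of 44 (11.4%), apoptotic cell uptake genes 8 of 71 (11.3%) and chromatin regulators 12 of 125 (9.60%). Nuclear receptors and coregulators had 9 of 113 and lipid handling genes 9 of 113 (both 7.96%), near the background of 7.22%. For the nuclear receptors these were the promoters of Pparg (11569, 10520, 34622 and 23424), Nr1h2, which encodes LXR-beta (14244, 10842, 30328 and 55011), Ncoa1 and Nr3c1, and regions near Nrip1, Nr4a1, Nr4a2 and Thrb. A second member assigned to Nr3c1 lay 238 kb away in Arhgap26. Near Nrip1, a corepressor of nuclear receptors, the ranks were 7128, 7268, 37002 and 35594, so that both LysMCre+ libraries lay far from both controls.

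Of the remaining lists, integrin and adhesion genes had 7 of 118, interferon-stimulated genes 3 of 49, solute carriers 23 of 405, zinc finger proteins 29 of 434 and core macrophage transcription factors 12 of 230 (5.22%). Cell cycle genes had 3 of 79 (3.80%), the Mcm2 promoter and the promoters of Smc2os and Ift80 beside Smc2 and Smc4, and translation initiation factors had 2 of 66 (3.03%). Mitochondrial ribosomal protein genes had 6 of 68 (8.82%), respiratory complex I genes 3 of 41, proteasome genes 3 of 50, DNA repair genes 3 of 48, ATP synthase genes 1 of 23, RNA polymerase genes 1 of 23 and small nucleolar RNA genes 1 of 42. MicroRNA genes had 27 of 501 (5.39%) and 86 LysMCre+-only regions (17.2%). Genes that mark small peritoneal macrophages or monocyte-derived macrophages had 3 of 34 (8.82%): the promoters of H2-Aa and H2-DMa, which serve antigen presentation, and a region near Cd14.

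Several genes were nearest to more than 1 member: 1279 of 1432 genes had 1, 134 had 2, 15 had 3, 3 had 4 and 1 had 6. Cd36, which encodes a fatty acid and oxidised lipoprotein receptor, had 4 members among its 6 regions, all in introns. Control ranks ran from 9480 to 15092 and LysMCre+ ranks from 16720 to 28044, an order fixed by the rule. On the relative log2 scale chr5:17857300-17857639 was higher in both LysMCre+ libraries (−0.83, −0.77, −0.57 and −0.51). Lower values in both LysMCre+ libraries were seen at chr5:17839609-17839981 (−0.44, −0.65, −0.99 and −0.78) and chr5:17879861-17880322 (−0.78, −0.34, −0.95 and −0.79). At chr5:17854494-17854918 the genotypes overlapped (−0.42, −0.77, −0.89 and −0.60). Rap2b, a small GTPase of the RAS family, had 4 of 6, including its promoter (5227, 7527, 16768 and 24773). Sgms1, which encodes sphingomyelin synthase 1, had 4 of 24, and the RIKEN gene A630001O12Rik had 6 of 21. All 3 regions of Bmp2, of Clec4d, a C-type lectin gene, and of Mpeg1, which encodes perforin-2, were members. Dhrs3, whose enzyme reduces retinaldehyde, had 3 of 12 regions, with ranks of 7790, 9923, 32005 and 19671 at the strongest. Cd86 and Cd93 had 3 of 7 each, and Ptgs1 3 of 6.

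The share in promoter-TSS differed little between the members and every region. Of the members, 614 lay in promoter-TSS, defined as 1 kb before to 200 bp after a transcription start, or 38.1% (Wilson 35.8 to 40.5), beside 38.1% of all 22300 regions. It was 59.4% of the control-only regions with 8000 peaks per library, and 9.66% with 38048 peaks and without Rxrab fl/fl replicate 3. Introns held 451 (28.0%) and intergenic sequence 502 (31.2%), while coding exons held 11 and untranslated regions 25 in all. Of the promoter members, 570 (92.8%) were at protein-coding genes and 33 at long non-coding RNA genes. The regions taken in all 4 libraries had 53.8% in promoter-TSS, but the 3859 of them whose worse control rank was past 8000 had 37.3%, a share within the interval of the members. The LysMCre+-only regions had 13.2% (11.7 to 14.9). The libraries themselves differed in this measure, with 48.3% of the taken peaks in promoter-TSS in each control and 43.6% and 41.0% in LysMCre+ replicates 1 and 2. Its part in the shares of the classes was not tested.

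**Figure D4:**
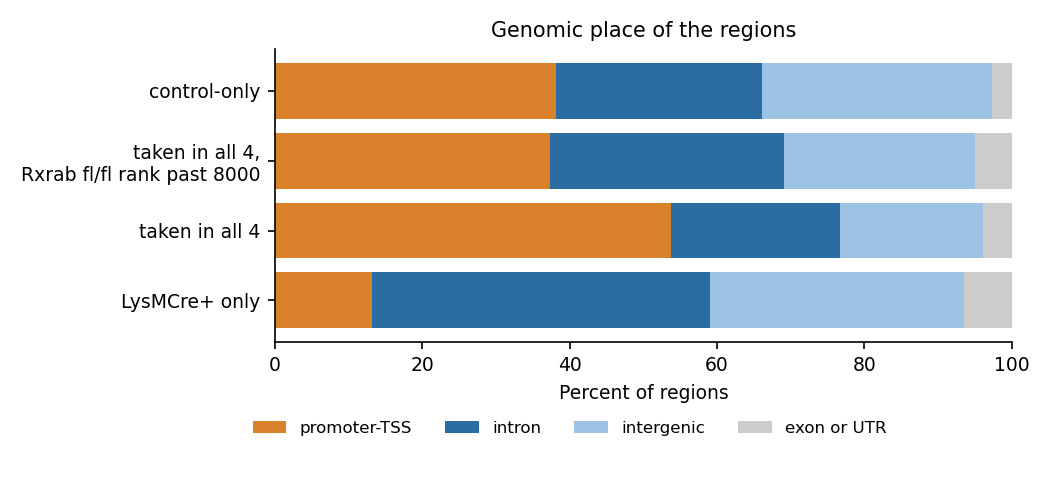
Percent of regions by genomic place for 1610 control-only regions, 3859 regions taken in all 4 libraries with a worse Rxrab fl/fl rank past 8000, 10272 regions taken in all 4, and 1743 LysMCre+-only regions. Promoter-TSS makes up 38.1%, 37.3%, 53.8% and 13.2%.

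Promoter members stayed nearer to the cut than the others in LysMCre+ replicate 1, with a median rank of 20481 against 23729.5 outside promoters, and not in replicate 2, with 23498 against 23042.5. The share of members in promoter-TSS was 42.1% among those whose better LysMCre+ rank was up to 18000 and 18.8% among the 117 from 30001 to 40000. The merged members had a median width of 465 bp, against 682.5 bp for the common regions and 532 bp for LysMCre+-only regions. A common region merges taken peaks of 4 libraries and a member those of 2, so these widths are not alike. In the controls alone, the members' peaks had median widths of 461 and 280.5 bp. Those of common regions with a control rank past 8000 had 453 and 276 bp. The members' median GC content within 100 bp of the summit was 53.2%. It was 60.2% in the common regions, 56.2% in those with a control rank past 8000 and 53.7% in the LysMCre+-only regions. Repeats, as soft-masked in the reference, covered more than 50% of this window in 35 members (2.17%). The share was 0.681% in the common regions, 1.24% in those with a control rank past 8000 and 2.87% in the LysMCre+-only regions.

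Members outside promoters had a larger share with a GATA match than the other classes had, with intervals that did not overlap. AGATAAG or TGATAAG stood within 100 bp of the strongest control summit in 108 of 996 such members (10.8%, Wilson 9.06 to 12.9). The share was 3.50% (3.01 to 4.06) in the 4749 common regions outside promoters, 3.10% in the 2421 of those with a control rank past 8000, and 1.12% in the 1513 LysMCre+-only regions. In promoter members it was 2.28%, beside 1.2% of common promoters. Among members outside promoters the share was 6.20% of the 274 with a better LysMCre+ rank up to 18000, 9.73% of 185 up to 20000, 10.9% of 276 up to 25000, 15.2% of 145 up to 30000 and 14.7% of 95 up to 40000, and 7 of the 18 that ranked below that had one. Of all 122 members with a GATA match, 5 had it in soft-masked repeats, 23 also had an AP-1 match and 10 a C/EBP match. Members with a GATA match included those near Samsn1, Ptgs1, Klf3, D330050G23Rik and Mir6897 shown above, and those at Aspa, Adgre1 and Icam2 among the LPM genes.

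Other matches outside promoters went both ways. C/EBP letters (TTGCGCAA, TTGTGCAA or TTGCATAA), bound by a family of myeloid factors, stood in 6.12% of members (4.80 to 7.79), 3.14% of common regions and 1.45% of LysMCre+-only regions. The PU.1 letters (GAGGAAGT), bound by the master factor of myeloid cells, were scarcer in members, with 7.13% (5.69 to 8.90) against 12.1% and 14.7%. A CTCF consensus, which marks sites of chromatin loop anchors, was found in 0 of 996 members (Wilson upper bound 0.384%), 1.5% of common regions and 5.16% of LysMCre+-only regions. AP-1 (TGAGTCA) stood in 17.0% of members and 18.7% of common regions, and MAF (TGCTGAC) in 6.33% and 7.08%, shares whose intervals overlapped. KLF letters (GGGTGTGG or GGGCGTGG) stood in 4.32% of members, 6.72% of common regions and 6.35% of LysMCre+-only regions. In and outside promoters together, MEIS letters (GCTGTCA) stood in 4.29% of members (3.40 to 5.39) and 6.08% of LysMCre+-only regions (5.05 to 7.30). ISRE letters (GAAANTGAA) stood in 1.80% (1.26 to 2.57) and 1.43% (0.973 to 2.11), and for both motifs the intervals overlapped.

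In promoters the members differed from common promoters most in the NF-Y letters (AGCCAAT), which stood in 19 of 614 (3.09%, 1.99 to 4.78) against 15.3% (14.4 to 16.3) of 5523 and 9.32% of the 1438 with a control rank past 8000. ETS (CCGGAAGT) stood in 11.2% (8.98 to 14.0) against 7.66%, the cyclic AMP response element (CRE, TGACGTCA) in 6.19% (4.54 to 8.38) against 3.22%, NRF1 (GCGCATGCG) in 3.91% against 2.17%, YY1 (AAGATGGCG) in 3.42% against 2.03% and KLF in 13.7% against 11.4%. For YY1 and KLF the intervals of both classes overlapped. In the 230 LysMCre+-only promoters the ETS share was 3.91% and the CRE share 0.870%. A match says only that the letters are in the window.

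**Figure D5:**
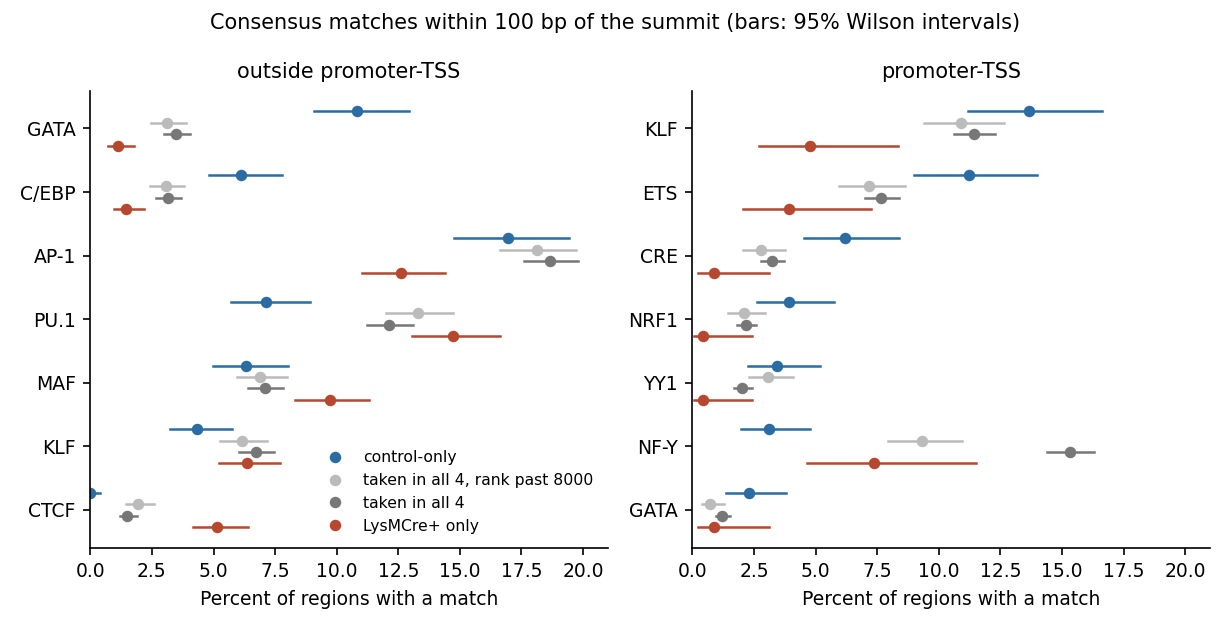
Percent of regions with a consensus match within 100 bp of the summit, outside promoter-TSS (left) and in promoter-TSS (right), for control-only regions, regions taken in all 4 libraries with a worse Rxrab fl/fl rank past 8000, regions taken in all 4, and LysMCre+-only regions; points are shares and lines 95% Wilson intervals. Outside promoters GATA is at 10.8% of control-only and 3.50% of common regions, and PU.1 at 7.13% and 12.1%.

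Direct repeats of the hexamer AGGTCA, or of its forms GGGTCA and AGTTCA and GGTTCA, were rare. With 1 to 5 bases between them, they stood in 23 members (1.43%, 0.954 to 2.13), 0.594% (0.463 to 0.762) of common regions, 0.648% (0.439 to 0.955) of those with a control rank past 8000 and 0.172% of LysMCre+-only regions. By spacing there were 7 members with DR1 (0.435%, beside 0.175% of common regions), 7 with DR2 (0.435%, beside 0.107%), 2 with DR3, 3 with DR4 and 4 with DR5 (0.248%, beside 0.195%). Outside promoters, the share with any of them was 1.81% (1.15 to 2.84) in members and 1.01% (0.763 to 1.34) in common regions, so that the intervals overlapped.

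The DR1 members lay near Gm7160, Cd93, Dnaja2, Zfr, Rassf5, Cxcl10 and Wdr91, and the DR5 members near Rab10os, P2rx1, Dzip1 and Gm10415. All 13 bases of the Gm7160 match and 13 bases of the Dzip1 match were in soft-masked repeats. The Cd93 region (chr2:148492123-148492853), 49.0 kb from the gene of a transmembrane receptor of myeloid and endothelial cells, was among the strongest members, with fold enrichments of 19.6 and 11.4 in the controls and 12.2 and 8.68 in the LysMCre+ libraries. Its rank in LysMCre+ replicate 1, 16447, lay just below the cut. The P2rx1 region (chr11:72997552-72997960), 1.39 kb upstream of the gene of an ATP-gated channel, had fold enrichments of 11.5, 5.30, 7.64 and 4.70 and ranks of 9422, 13371, 31694 and 35997. The Cxcl10 promoter, of an interferon-induced chemokine, ranked 13809, 11184, 25309 and 35364. Near Gm10415, which has no stated function, the ranks were 11790, 12126, 55567 and 36466, and the pileups 56 and 13 tags in the controls and 12 and 14 in the LysMCre+ libraries. The DR2 matches of the Naip1 and Cyp26a1 members lay outside repeats.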

How the data were processed

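ATAC-seq peak lists of 4 LPM libraries were analysed, 2 of Rxrab fl/fl and 2 of LysMCre+ Rxrab fl/fl. The authors trimmed adaptors (cutadapt), aligned read pairs to mm10 (Bowtie2), discarded duplicates, poorly mapped pairs and pairs from the sex and mitochondrial chromosomes, and called peaks in each library alone with MACS2 2.1.1 (extension 200 bp, q value 0.05), so no control-only region can lie on a sex chromosome. Blacklisted regions were removed with bedtools 2.24.0, and versions are those of the submitters' processing notes. The deposited lists give the fold enrichment at each summit, a ratio to the background around it, with −log10 p and −log10 q values. Read counts and total depth were not used here. Nothing in the labels places the libraries in different batches.

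Peaks were ranked by the deposited −log10 q value, ties by fold enrichment and then by position. The summit pileup was solved from fold enrichment and p value with a pseudocount of 1. It is a count of extended tags, not of molecules. Regions were placed by their midpoint on 45756 curated RefSeq transcripts of 26180 genes (GRCm38.p6, the build of mm10), and assigned to the nearest transcription start. A total of 21 motifs were searched on both strands within 100 bp of the summit of highest fold enrichment in Rxrab fl/fl (in LysMCre+ for regions taken only there). The steps were tested on simulated data. No test was run on accessibility, since the rule used it. No paired analysis was possible because no result comes from a test and the genotypes share 1 replicate number.

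Genes were named by rule: members missing from a LysMCre+ list, the 20 of lowest LysMCre+ and the 20 of best control rank, genes nearest to 4 or more members, up to 4 members of a gene list, DR1 and DR5 members, regions at the edge of the cut, and genes the study names. Further members of the gene lists, genes nearest to 3 members and the DR2 members of Naip1 and Cyp26a1 were named after their values were seen. Members, lists and motifs were chosen with earlier results of these data known. Alternatives were the number of peaks, the q value, the ranking, the overlap, summits, left-out libraries, promoter windows and transcript sets. Scripts used Python 3.11.15, numpy 2.4.6, pandas 2.3.3, scipy 1.17.1 and pysam 0.24.0.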

Additional observations from a re-analysis of the deposited data

How the results depend on the processing

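The number of control-only regions stayed within 1.5 times 1610 under the 7 planned changes of cut, ranking and overlap, from 1078 to 2222, but ranking by fold enrichment shared 849 of the 1610 members and ranking by pileup 1079. Leaving out each library gave 2271 to 3026 regions, since a rule on 3 libraries asks for less (3026 without Rxrab fl/fl replicate 1 and 2543 without LysMCre+ replicate 1). The share with a peak in both full LysMCre+ lists was 99.7% with 12000 peaks, 100% with 8000, 99.3% by fold enrichment, 81.1% with peaks cut to 100 bp around summits, and 91.1% to 99.2% without each library. The promoter-TSS share was 48.8% with 12000 peaks, 59.4% with 8000, 46.6% by fold enrichment, 41.0% with summits, 42.3% with a promoter from 2 kb upstream to 500 bp downstream, 40.7% with predicted transcripts, and 30.9% to 45.0% without each library. Without Rxrab fl/fl replicate 3 and with the 38048 peaks of the shortest remaining list, chosen after seeing the data, there were 5041 regions, of which 39.3% had a peak in both LysMCre+ lists and 9.66% were in promoter-TSS. The share with a GATA match outside promoters ran from 8.13% to 11.96%, beside 3.11% to 4.12% in common regions, and the LPM gene share from 16.2% to 33.3%, the latter without Rxrab fl/fl replicate 1 (alternatives chosen after seeing the data). Each genotype has 2 libraries, and the shallow list of Rxrab fl/fl replicate 3 sets the cut.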
